A study of Mus musculus with 3 samples.

Results

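The EGF family ligands and their ErbB receptors were followed in single-cell RNA sequencing of mouse small-intestinal organoids, which are epithelial bodies grown from crypts in a gel. The 9 genes were taken by symbol from the 32285 counted genes: 6 ligand genes (Areg, Ereg, Epgn, Hbegf, Tgfa and Btc) and 3 receptor genes (Egfr, Erbb2 and Erbb3). All 9 symbols were found once each.

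There were 3 groups with 1 library each, all from C57BL/6 mice aged 7 to 8 weeks that received 2 doses of 2 mg tamoxifen. The WT group carried the wild-type genotype and was analyzed 21 days after tamoxifen. The LApc group carried Lgr5-CreERT2 and floxed Apc (Apc fl/fl) and was analyzed after 29 days. The LApcL group carried both of these and floxed Lef1 (Lef1 fl/fl) and was analyzed after 21 days. In both mutant groups the Cre recombinase is driven by the Lgr5 gene, so deletion starts in Lgr5-positive cells, and the share of cells in which it was complete was not measured here. The organoids were taken at passage 3 on day 6, made into single cells with trypsin and sorted. According to the methods, LApc and LApcL organoids were grown for their early passages without added growth factors. Growth factors were added at passage 3 in stated combinations, and which medium the sequenced organoids of the 3 groups received is not given in the sources used here, so an effect of EGF in the medium and an effect of genotype cannot be told apart. With 1 library per group there was no replicate and no test between groups, and the number of mice behind each organoid library is not given in the sources used here. The intervals below are exact 95% intervals of counting error only.

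EGF family ligands are made as membrane-bound precursors that proteases of the ADAM family can release. Amphiregulin (Areg), epigen (Epgn) and TGF-alpha (Tgfa) bind EGFR, whereas HB-EGF (Hbegf), betacellulin (Btc) and epiregulin (Ereg) also bind ErbB4. ErbB2 has no known ligand of its own and ErbB3 is a weak kinase, so both act mainly in pairs with another receptor. Activated receptors signal through the Ras-MAPK and PI3K-Akt cascades. In the intestine EGF signaling supports crypt growth, and EGF is a usual component of organoid medium.

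Ereg, Epgn, Areg and Btc are neighbors on mouse chromosome 5. In GENCODE annotation of GRCm38 they lay in the order Epgn, Ereg, Areg and Btc within chr5:91027464-91402994, a span of 376 kb in which they were the only counted coding genes. Areg was at chr5:91139599-91148432 on the plus strand. Egfr (chr11:16752203-16918158) and Erbb2 (chr11:98412470-98437716) were on chromosome 11, Erbb3 (chr10:128567523-128589652) on chromosome 10, and Tgfa (chr6:86195223-86275719) on chromosome 6. Ereg, Egfr and Erbb2 each overlapped 1 counted gene on the other strand (Gm19610, Egfros and Mien1). RefSeq windows upstream of the gene start were found for 6 of the 9 genes, namely Areg, Epgn, Tgfa, Btc, Egfr and Erbb2.

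Upstream sequences of 250 bases are shown for 3 genes, because Areg differed most between WT and the mutants among the members tested and Egfr and Erbb2 were the receptors higher in LApc than in WT. They are written 5′ to 3′ on the plus strand of GRCm38.p6, ending at the RefSeq gene start, at chr5:91139349-91139598 for Areg, chr11:16751953-16752202 for Egfr and chr11:98412234-98412483 for Erbb2. Capitals mark matches to the searched motifs.
Areg: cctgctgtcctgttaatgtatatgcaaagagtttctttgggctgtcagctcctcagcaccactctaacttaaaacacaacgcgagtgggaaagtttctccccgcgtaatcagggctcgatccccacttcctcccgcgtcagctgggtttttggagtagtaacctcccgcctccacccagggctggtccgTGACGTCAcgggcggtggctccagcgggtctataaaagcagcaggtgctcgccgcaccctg
Egfr: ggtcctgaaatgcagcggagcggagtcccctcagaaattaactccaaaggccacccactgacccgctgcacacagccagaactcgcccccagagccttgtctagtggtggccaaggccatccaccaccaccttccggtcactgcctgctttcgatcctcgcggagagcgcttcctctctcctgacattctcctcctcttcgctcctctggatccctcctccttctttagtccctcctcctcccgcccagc
Erbb2: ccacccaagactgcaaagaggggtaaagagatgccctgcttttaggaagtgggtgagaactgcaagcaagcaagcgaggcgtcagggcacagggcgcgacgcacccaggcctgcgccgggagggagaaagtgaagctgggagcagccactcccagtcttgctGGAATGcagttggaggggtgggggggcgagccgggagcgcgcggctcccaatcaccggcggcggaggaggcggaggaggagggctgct
Both strands of the 6 windows were searched for a TCF/LEF motif (CTTTGA), an AP-1 motif (TGANTCA), a cAMP response element or CRE (TGACGTCA) and a TEAD motif (GGAATG). Areg held the CRE, which began 61 bases before the gene start, and Erbb2 held the TEAD motif, 88 bases before its start. Of all 32851 RefSeq windows of this length, 1.55% held the CRE letters and 12.6% the TEAD letters. The TCF/LEF letters, present in 13.8% of all windows, and the AP-1 letters, present in 6.75%, were not in the 6 windows. These matches describe letters in a short window and do not show that a factor binds there.

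Levels were measured in barcodes found in 1 library only, with at least 10000 unique molecular identifiers (UMIs, each tagging 1 captured RNA molecule) and at most 20% mitochondrial UMIs. This left 1208 WT, 2161 LApc and 1931 LApcL barcodes with 48895147, 90864428 and 80504226 UMIs and medians of 38073.5, 34377 and 32584 UMIs. The median mitochondrial share was 10.5% in WT, 5.64% in LApc and 6.39% in LApcL. Epcam, the epithelial marker, was at 1192, 1565 and 1967 counts per 1000000 UMIs (CPM) in WT, LApc and LApcL. Lef1 itself was at 0.96, 72.0 and 47.8 CPM, and counts from the 3′ end of a transcript do not measure whether its floxed exons were removed. Between 27.3% and 30.3% of the deposited barcodes of a library were also present in another library. They were left out. Only 9 of them in WT, 11 in LApc and 5 in LApcL met the UMI and mitochondrial limits. With these few left in, Erbb2, the gene nearest the 2-fold limit used below, was at 22.4 CPM in LApc and 10.7 in WT. The other shared barcodes stayed out, so this setting could hardly change a level.

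Areg and Ereg differed most of the tested family members between WT and the mutant libraries. Areg was at 1549 CPM in WT (1538 to 1560), against 114 in LApc (111 to 116) and 88.7 in LApcL (86.6 to 90.7). It was therefore 13.6-fold lower in LApc than in WT (13.4 to 13.9) and 17.5-fold lower in LApcL than in WT (17.0 to 17.9). The order WT, LApc, LApcL held with no overlap of the intervals. Counted per cell after every barcode was thinned to 10000 UMIs, 88.4% of WT barcodes had an Areg UMI (86.5 to 90.2), against 33.4% in LApc and 27.5% in LApcL; without thinning the shares were 94.6%, 57.1% and 46.5%.

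RNA free in the droplet can add a UMI to cells that do not express a gene. No cell class of these libraries is known to lack these genes, so no background share was set and the shares are given as measured.

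Ereg followed the same order. It was at 44.4 CPM in WT (42.6 to 46.3), against 6.67 in LApc (6.15 to 7.22) and 3.71 in LApcL (3.31 to 4.16), and its positive share at 10000 UMIs was 19.9%, 3.89% and 2.38%. Epgn, the third of these chromosome 5 ligands, was scarce everywhere with 107 UMIs in WT, against 15 in LApc and 3 in LApcL, or 2.19, 0.17 and 0.04 CPM. Its WT level was 13.3-fold that of LApc (7.69 to 24.5) and 58.7-fold that of LApcL, with a counting interval of 19.6 to 289. Epgn stayed below 5 CPM in all 3 libraries and was therefore left out of the counts of changed genes.

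Btc, at the far end of the same chromosome 5 group, did not share this fall. It was at 29.6 CPM in WT, against 30.6 in LApc and 23.8 in LApcL, and the ratio of LApc to WT was 1.03 (0.970 to 1.10), an interval that includes 1. Btc was lower in LApcL than in LApc by a factor of 1.28 (1.21 to 1.36). Its positive share was 21.6%, 21.7% and 18.5%.

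**Figure D1:**
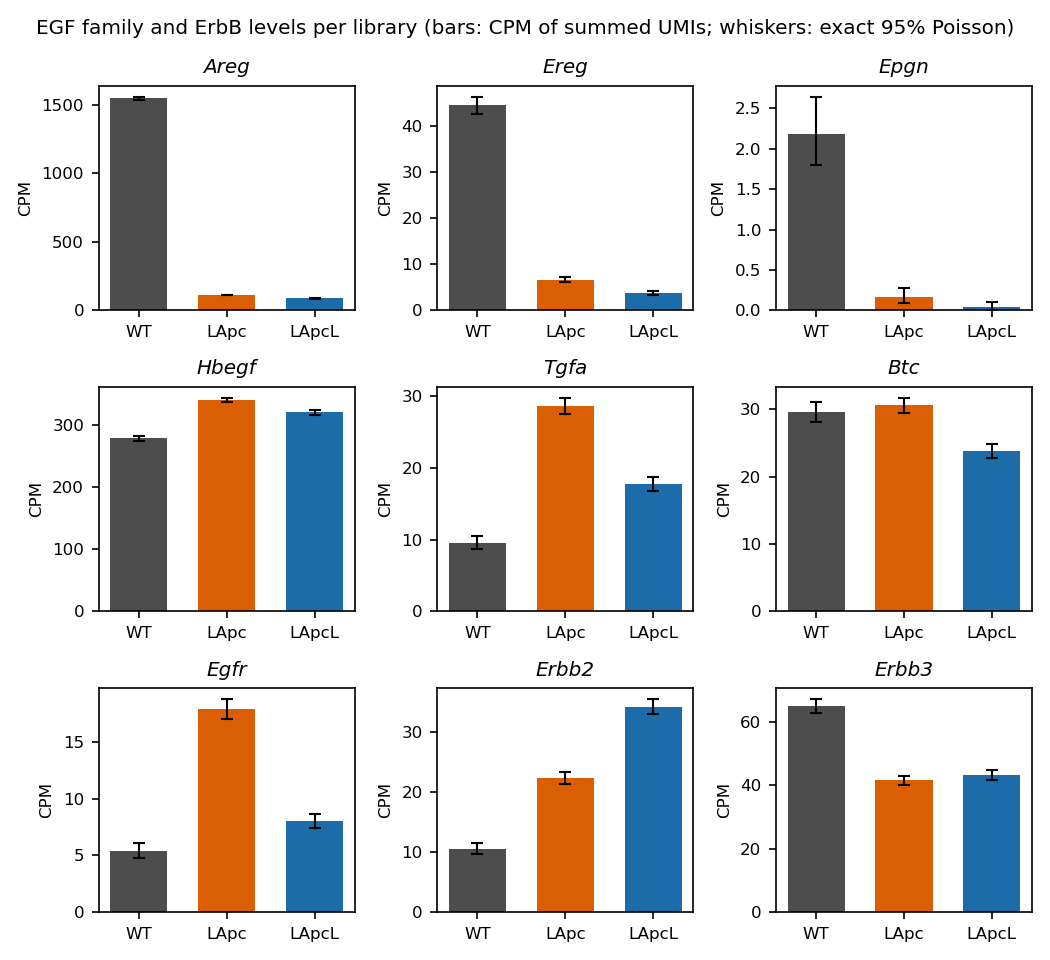
Levels of the 6 ligand and 3 receptor genes in each library, with CPM of summed UMIs on the y axis (a separate linear axis from 0 for each gene), 1 bar per library and exact 95% Poisson whiskers for counting error. Areg fell from 1549 CPM in WT to 114 in LApc and 88.7 in LApcL, whereas Erbb2 stood at 10.6, 22.4 and 34.3 CPM.

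Hbegf and Tgfa were not lower in the mutant libraries on the CPM scale, although Hbegf was under median-of-ratios scaling. Hbegf was at 278 CPM in WT, against 340 in LApc and 320 in LApcL, a range of 1.22-fold, and 79.6%, 74.3% and 81.5% of barcodes were positive at 10000 UMIs. Tgfa was at 9.55 CPM in WT (8.70 to 10.5), against 28.7 in LApc (27.6 to 29.8) and 17.7 in LApcL (16.8 to 18.7). Tgfa was thus 3.00-fold higher in LApc than in WT (2.72 to 3.32) and 1.86-fold higher in LApcL than in WT (1.67 to 2.07). Its positive share went from 8.28% in WT to 24.3% in LApc and 16.6% in LApcL.

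The other ErbB ligands were near or at zero, except Nrg4 in WT. Egf itself was at 0.94, 0.34 and 0.70 CPM in WT, LApc and LApcL, Nrg1 at 0.14, 0.31 and 0.14 and Nrg2 at 0.53, 0.14 and 0.16. Nrg4, a neuregulin that binds ErbB4, was at 6.87 CPM in WT and at 0.50 and 0.26 in LApc and LApcL. No UMI of Nrg3 or of the receptor gene Erbb4 was counted in any library, which at 3 counts allows levels of up to 0.061 CPM in WT, against 0.033 in LApc and 0.037 in LApcL.

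The 3 receptors each had a different order among the libraries. Egfr, the receptor of all 6 ligands, was at 5.40 CPM in WT (4.77 to 6.09), against 17.9 in LApc (17.0 to 18.8) and 8.00 in LApcL (7.39 to 8.64). It was 3.31-fold higher in LApc than in WT (2.91 to 3.79) and 2.24-fold lower in LApcL than in LApc (2.04 to 2.45). The positive share of Egfr was 5.96%, 14.9% and 8.08% at 10000 UMIs.

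Erbb2 was higher in LApc than in WT and highest in LApcL, at 10.6 CPM (9.74 to 11.6), 22.4 (21.4 to 23.4) and 34.3 (33.1 to 35.6), with positive shares of 10.3%, 20.5% and 28.9%. It was 2.11-fold higher in LApc than in WT (1.91 to 2.32) and 3.23-fold higher in LApcL than in WT (2.94 to 3.55). Erbb3 was highest in WT at 65.1 CPM (62.8 to 67.4), with 41.6 in LApc and 43.3 in LApcL. The ratio of the mutant libraries for Erbb3 was 1.04 (0.993 to 1.09), so these neighbors in the order did not differ beyond counting error.

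**Figure D2:**
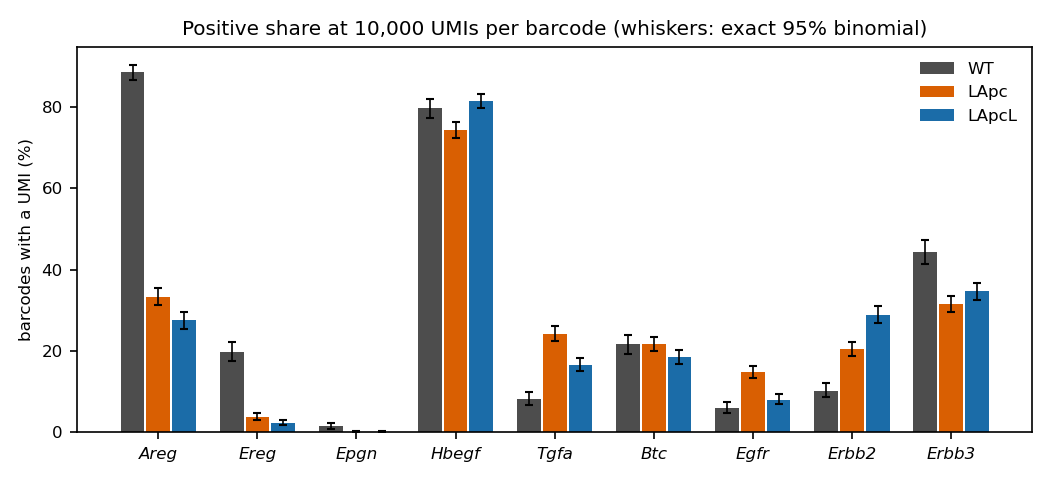
Share of barcodes with at least 1 UMI of each gene (y axis, percent) after all barcodes were thinned to 10,000 UMIs, 1 bar per library and exact 95% binomial whiskers. Areg was detected in 88.4% of WT barcodes and in 33.4% and 27.5% of LApc and LApcL barcodes, while the shares of Tgfa, Egfr and Erbb2 were higher in both mutant libraries than in WT.

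Taking the family as a whole, the members differed in both directions between LApc and WT. Values are log2 ratios of CPM with 1 CPM added to each, and a gene was counted when it had at least 5 CPM in 1 of the libraries compared, which 8 of the 9 did in each comparison. In LApc against WT, 3 of these 8 genes were at least 2-fold higher (Egfr 1.56, Tgfa 1.49 and Erbb2 1.01), where 24.5% of all 10748 genes tested were, and 2 were at least 2-fold lower (Areg -3.76 and Ereg -2.57), where 9.82% were. The median of the 8 was 0.17 beside 0.50 for all genes. Erbb2, close to the limit, was past it in 8 of 16 alternative settings. Scaling by median-of-ratios size factors lowers the median of all genes by 0.52 in this comparison, and under it Hbegf (-0.23) and Btc (-0.46) changed sign, Erbb2 was at 0.52 and Erbb3 passed the 2-fold limit at -1.14.

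LApcL and LApc differed in floxed Lef1 and also in days after tamoxifen (21 and 29), which cannot be told apart. Egfr and Tgfa were nearer to WT in LApcL than in LApc, and Areg, Ereg and Erbb2 were farther from it. In LApcL against LApc, none of the 8 was 2-fold higher, where 1.49% of 10389 genes were, and 1 was 2-fold lower (Egfr -1.07), where 3.75% were. Ereg (-0.70), Tgfa (-0.66), Areg (-0.35) and Btc (-0.35) were lower by less than 2-fold and Erbb2 (0.59) was higher. The median of the 8 was -0.35 beside 0.04 for all genes. The count of 1 rested on Egfr, which was at -0.85 when LApc barcodes holding a UMI of Npy, a neuropeptide gene at 396 CPM in LApc and at or near 0 in WT and LApcL, were left out.

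LApcL against WT gave 1 gene at least 2-fold higher (Erbb2 1.60), where 27.1% of 10646 genes were, and 2 lower (Areg -4.11 and Ereg -3.27), where 10.6% were. Tgfa was at 0.83, Egfr at 0.49, Hbegf at 0.20, Btc at -0.30 and Erbb3 at -0.58, and the median of the 8 was -0.05 beside 0.52 for all genes. Median-of-ratios scaling lowers the latter by 0.56 and takes Hbegf to -0.35, Egfr to 0.01 and Erbb3 past the limit to -1.12. This comparison and LApc against WT share the WT library.

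**Figure D3:**
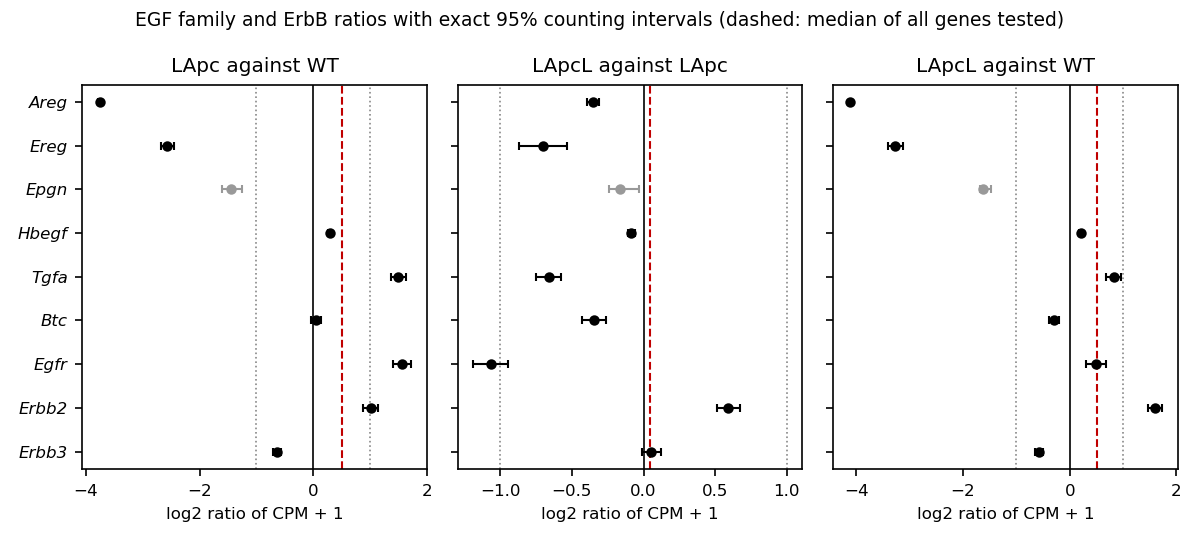
Log2 ratio of CPM + 1 (x axis) for the 9 genes in the 3 comparisons, with exact 95% counting intervals, the 2-fold limits dotted and the median of all genes tested dashed; Epgn is gray because it stayed under 5 CPM. Areg and Ereg lay below -2.5 in both comparisons with WT, and Egfr was the gene past the limit in LApcL against LApc.

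Markers of enterocytes, the absorptive cells, also separated WT from the mutants. All 12 enterocyte markers tested were at least 2-fold lower in LApc and in LApcL, and their summed level was 23213 CPM in WT against 14.5 in LApc and 16.3 in LApcL; of the 12, only Apoa4 was at 0 in a library (LApcL). The WT barcodes were therefore split by the share of their UMIs in these markers, and the part of cell makeup in the ratios above was not tested beyond these strata and the cluster comparison below. Areg was at 354 CPM in the 155 WT barcodes under 0.2%, 640 in the 167 from 0.2% to 0.5%, 1481 in the 167 from 0.5% to 1%, 1906 in the 373 from 1% to 3% and 2007 in the 346 above. The mutant libraries as a whole were at 114 and 88.7 CPM, and the part of free Areg RNA in the lower WT strata was not tested. Ereg went from 7.02 CPM in the lowest stratum, near the 6.67 of LApc, to 72.8 in the stratum from 1% to 3% and 45.5 in the highest.

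**Figure D4:**
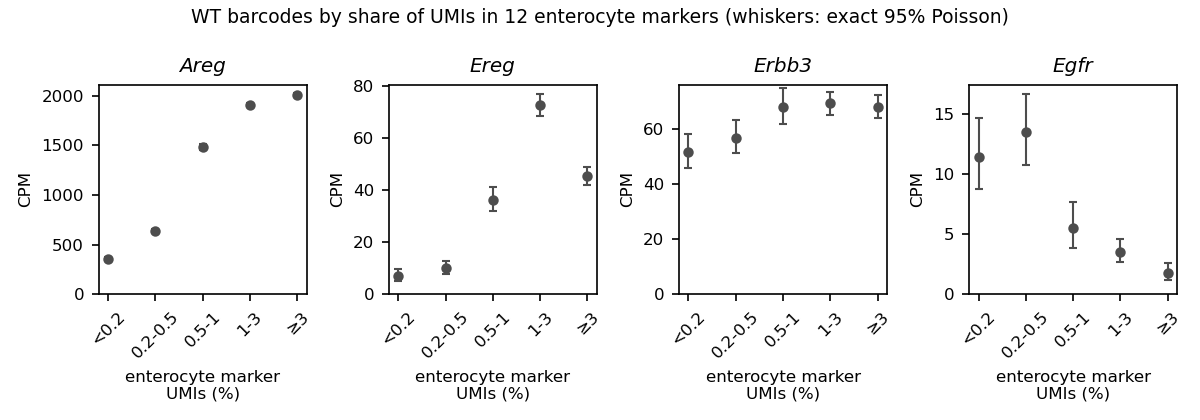
Levels (CPM, y axis) of Areg, Ereg, Erbb3 and Egfr in WT barcodes split by the percent of UMIs in 12 enterocyte markers (x axis), with exact 95% Poisson whiskers. Areg rose from 354 to 2007 CPM over the strata, and Egfr went from 11.5 to 1.80 CPM.

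Egfr showed the opposite gradient within WT. It was at 11.5 CPM in the lowest stratum and 13.5 in the next, then 5.52, 3.53 and 1.80 CPM as the enterocyte share increased. With the 719 WT barcodes at or above 1% left out (128 of all WT barcodes lay close to this limit), Egfr was at 10.1 CPM in WT, its log2 ratio in LApc against WT fell to 0.77 and that in LApcL against WT became -0.30. Areg was then at 850 CPM in WT with ratios of -2.89 and -3.25, and Ereg at 18.5 CPM with ratios of -1.34 and -2.05. Tgfa (1.72 and 1.06) was past 2-fold in both comparisons, and Erbb2 was at 0.89 and 1.48.

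The barcodes of each library were clustered separately to see which cells carried the family. In WT, Areg was high in the unnamed clusters led by Eno3 (2085 CPM), Cyp2c29 (2212) and Ctrb1 (2158), which held 37.7%, 20.9% and 23.1% of its UMIs. The proliferating/TA-like cluster (TA, transit-amplifying) of 185 barcodes had 1000 CPM. Goblet-like cells were at 440, the cluster led by Fgfbp1 at 367 and enteroendocrine-like cells at 189. Ereg peaked in the Cyp2c29-led cluster at 83.8 CPM and was lowest in goblet-like cells at 6.69. No background was set for these levels, so free RNA from other cells cannot be told apart from low expression. The 10% of barcodes with the most Areg held 31.3% of its UMIs in WT but 69.9% of those in LApc and 74.9% of those in LApcL.

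A proliferating/TA-like cluster was named in WT (185 barcodes) and LApc (447 barcodes). Areg was at 1000 CPM in the former and 134 in the latter, a log2 ratio of -2.89, and Ereg was at 21.6 and 6.72 (-1.55). Erbb2 was at 9.08 and 24.5 CPM (1.34) and Hbegf at 179 and 328 (0.87). Egfr, by contrast, was at 7.20 and 8.51 CPM in these clusters, a log2 ratio of 0.21, and Tgfa at 8.86 and 14.8 (0.68). In LApcL the mitotic cluster led by Sgo2a had 7 proliferating/TA markers among its 50 leading genes but none among the leading 10, so it was not named. Its Areg level was 77.4 CPM. A Paneth-like cluster was named in LApc (29 barcodes) and LApcL (85 barcodes). There Egfr was at 18.2 CPM (10.16 to 29.95) in LApc and 6.75 (3.86 to 10.96) in LApcL, Erbb2 at 6.05 (1.97 to 14.1) and 21.1 (15.6 to 27.8), and Areg at 66.6 and 39.6.

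Egfr was unequal among the clusters. In WT the 37 enteroendocrine-like barcodes were at 49.9 CPM (36.7 to 66.4) and held 17.8% of all Egfr UMIs. Erbb3 was at 104 CPM in the same cells (84.5 to 127), an interval that overlapped the 95.4 CPM (88.8 to 102) of the Ctrb1-led cluster. In LApc the cluster led by Tpsb2, which also included Npy among its leading genes, was at 39.0 CPM (36.2 to 41.9). These 480 barcodes, 22.2% of the library, held 45.4% of its Egfr UMIs and 42.9% of its Tgfa UMIs, with Tgfa at 59.1 CPM. LApcL had no cluster of that kind, and 6 of its 7 clusters lay between 6.04 and 9.65 CPM of Egfr. The remaining cluster, 21 barcodes led by Acta1 and Ly6d, was at 23.6 CPM (13.8 to 37.8). The 7 tested enteroendocrine markers of 8 were lower in LApc and in LApcL than in WT, with a sum over the 8 of 1376, 16.1 and 4.50 CPM in WT, LApc and LApcL; Gip was at 0 in both mutant libraries and Cck in LApcL.

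Different members of the family were highest in different LApc clusters. The cluster of 470 barcodes led by Ms4a10, Serpinb6b and Plac8 was the highest of the library in Hbegf (616 CPM), Areg (166), Ereg (17.8), Btc (44.5) and Erbb3 (66.5), and held 62.5% of the Ereg UMIs. The Tpsb2-led cluster with the most Egfr and Tgfa had Ereg at 0.85 CPM and Areg at 80.9. In LApcL, Areg ranged from 12.2 CPM in the cluster led by Cplx2 to 123 in that led by Basp1 and Anxa1, and reached 648 in the 21 Acta1-led barcodes, which were also highest in Btc at 93.1. These clusters were defined from the same counts, so their differences are a description.

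**Figure D5:**
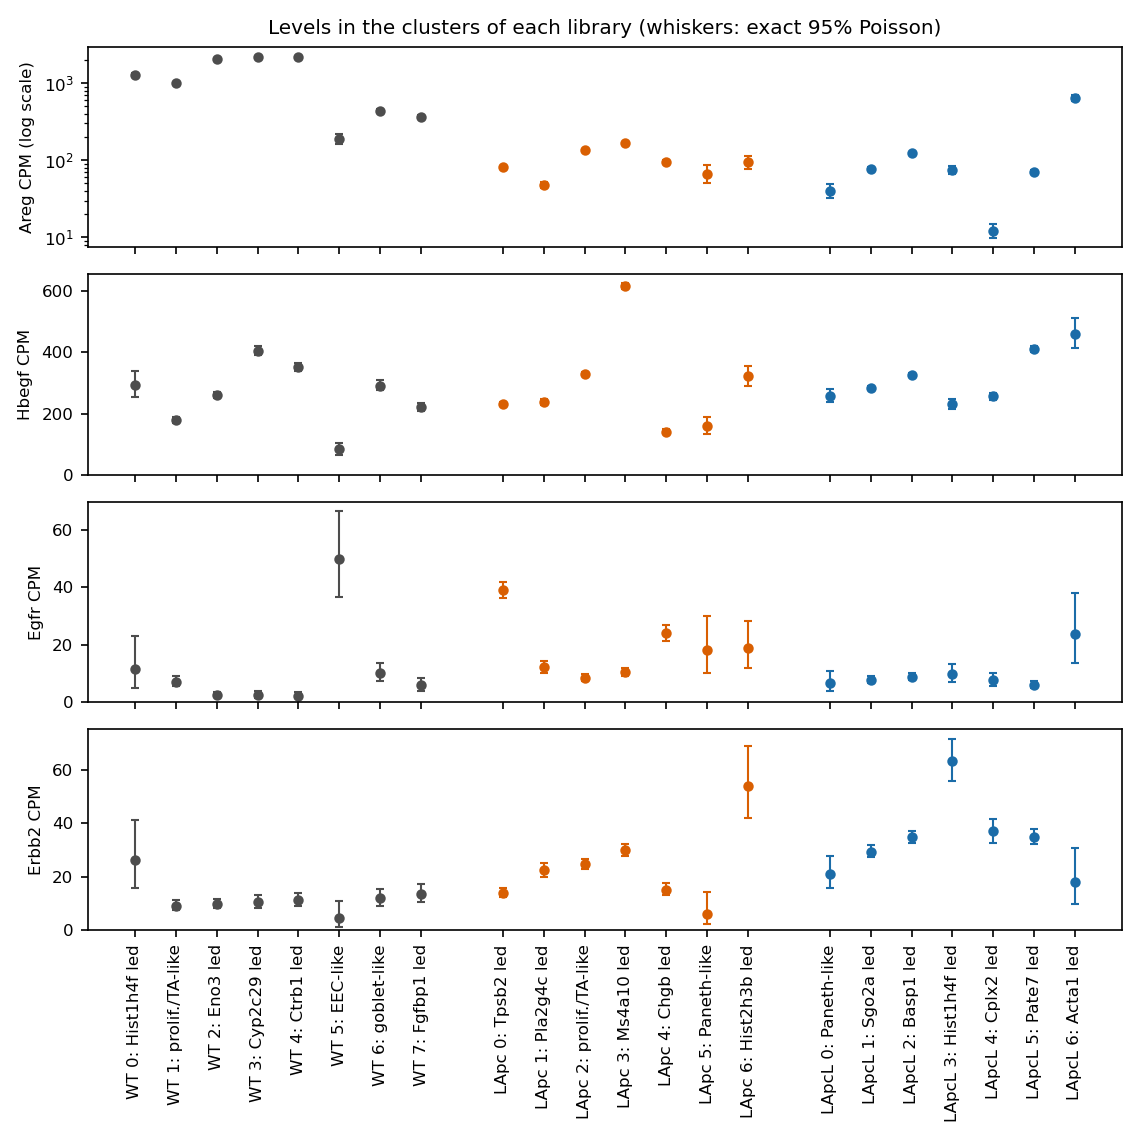
Levels (CPM, y axis, logarithmic for Areg and linear for the others) of Areg, Hbegf, Egfr and Erbb2 in each cluster of WT (gray), LApc (orange) and LApcL (blue), with exact 95% Poisson whiskers; clusters are named by class or by their leading gene. Areg was at 189 to 2212 CPM in the WT clusters, 47.6 to 166 in those of LApc and 12.2 to 648 in those of LApcL, with overlapping whiskers between the lowest WT and the highest LApc cluster, and Egfr was highest in the enteroendocrine-like cluster of WT and the Tpsb2-led cluster of LApc.

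Within each library, Erbb2 stood highest in the cluster led by histone genes, although in WT its interval overlapped that of the next cluster. The histone-led clusters were at 26.1 CPM in WT (15.5 to 41.3, 41 barcodes), against 54.2 in LApc (77 barcodes) and 63.6 in LApcL (232 barcodes). The next highest clusters of the same libraries were at 13.4 (10.4 to 17.1), 29.9 and 36.9 CPM. The mitochondrial share of the histone-led clusters was high, with medians of 12.7%, 13.5% and 13.9%, and their depth low, with medians of 13527, 12079 and 13253 UMIs. In all 3 libraries Erbb2 was also higher in barcodes of 10% to 20% mitochondrial UMIs than in those under 5%, at 11.1 against 6.17 CPM in WT, 33.6 against 16.5 in LApc and 47.6 against 28.3 in LApcL. Without the histone-led clusters Erbb2 was at 10.4, 22.0 and 32.8 CPM, and with a mitochondrial limit of 10% its log2 ratios were 0.99, 0.58 and 1.57 in LApc against WT, LApcL against LApc and LApcL against WT.

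Within libraries, Areg and Hbegf varied with immediate-early and stress genes. Over the 1208 WT barcodes at equal depth, the genes whose log counts followed Areg most closely included Tm4sf20 (r = 0.69), Atf3 (0.67), Klf6 (0.61) and Arl4a (0.58). Atf3 encodes a stress-induced transcription factor. Hbegf followed Klf6 (0.42), Atf3 (0.40), Areg (0.38), Jun (0.38) and Btg2 (0.36) in WT, and Atf3 (0.42), Fos (0.38), Fosb (0.38), Klf6 (0.37) and Edn1 (0.34) in LApcL. In LApc its closest genes were Edn1 (0.51), Plac8 (0.44), Lgals4 (0.44), Phgr1 (0.41) and Ckmt1 (0.40). Areg in LApcL followed Gdf15 (0.39), F3 (0.35), Plk2 (0.35), Sfn (0.35) and Plaur (0.34). These correlations are across barcodes of 1 library, which share their preparation, and Areg in LApc and the remaining members had no partner at r = 0.3 or above or were positive in under 10% of barcodes.

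Levels of the stress genes are given beside those of Areg. Of 8 dissociation and stress genes, 2 were at least 2-fold higher in LApc than in WT (Hspa1b 2.35 and Hspa1a 1.36) and none was lower, with a median of 0.59, beside 24.5% higher, 9.82% lower and a median of 0.50 for all genes. Atf3 was at 829 CPM in WT, against 1066 in LApc and 633 in LApcL, and Jun at 1287, 1152 and 766. Junb (429, 591 and 381 CPM) was highest in LApc, as were Atf3 and Fosb (0.75 in LApc against WT and -0.07 in LApcL against LApc), whereas Jun was highest in WT. In LApcL against LApc none of the 8 passed 2-fold, where 1.49% of all genes were higher and 3.75% lower. The lowest were Atf3 (-0.75), Junb (-0.63) and Jun (-0.59).

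Transcripts of 4 proteins that release the ligands or carry the protease were counted. The counts of this and the following lists stand beside 24.5% of all genes higher and 9.82% lower in LApc against WT. These shares were 27.1% and 10.6% in LApcL against WT, and 1.49% and 3.75% in LApcL against LApc. In the same order the all-gene medians were 0.50, 0.52 and 0.04. Adam17, the main sheddase of Areg, Ereg, Hbegf and Tgfa, was at 11.2 CPM in WT, against 21.7 in LApc and 23.5 in LApcL, and Adam10, which can cleave Btc, at 38.4, 113 and 103. In LApc against WT, 2 of 4 genes of this list passed 2-fold (Rhbdf1 1.67, which carries ADAM17, and Adam10 1.54) with a list median of 1.22, and in LApcL against WT 3 did (Rhbdf1 1.98, Adam10 1.41 and Adam17 1.01). None of the 4 moved 2-fold between LApcL and LApc, where the shares over all genes were also low.

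Of 7 genes that restrain the receptors, 1 was at least 2-fold higher and 1 lower in LApc against WT, where 24.5% and 9.82% of all genes were. The list median was 0.86. Of the 7, Lrig3 was lower (22.6, 2.75 and 1.47 CPM in WT, LApc and LApcL) and Socs5 higher (2.97, 11.7 and 13.5). Errfi1, which encodes a feedback inhibitor of EGFR, was at 215, 133 and 115 CPM, less than 2-fold apart. Lrig1, a marker and regulator of stem cells that restrains ErbB receptors, was at 30.7, 56.6 and 94.9 CPM and passed 2-fold only in LApcL against WT (1.60), as did the ubiquitin ligase gene Cblb (1.10).

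Of the 15 adaptor and Ras-MAPK genes, none passed 2-fold in LApc against WT, from Map2k2 (-0.66) to Gab1 (0.92) and Nras (0.93), with a median of 0.58. Gab1 (1.11) and Nras (1.05) passed it in LApcL against WT, and none did in LApcL against LApc. In the PI3K-Akt arm, Akt2 (1.34) and Pik3ca (1.29) were higher in LApc than in WT, with a median of 0.89 over the 7 genes. In LApcL against WT, Akt2 (1.41), Akt1 (1.24) and Pik3ca (1.09) were higher.

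Feedback and target genes of ERK were split, with a median of 0.65 in LApc against WT over the 12 of 14 tested. In LApc against WT, 4 of 12 were at least 2-fold higher, among them Ier3 (3.82), the transcription factor gene Etv5 (2.48) and Phlda1 (2.34), and 2 were lower, the ERK phosphatase genes Dusp5 (-2.25) and Dusp4 (-1.30). Dusp5 was at 227 CPM in WT, against 47.1 in LApc and 27.4 in LApcL. Etv5 was at 2.74, 19.8 and 0.56 CPM. It was the 1 gene of the 12 tested past 2-fold between LApcL and LApc (-3.74), where 3.75% of all genes were lower. In LApcL against WT 3 of 11 were higher (Ier3 3.99, Phlda1 1.98 and Fosl1 1.29) and Dusp5 (-3.01) and Dusp4 (-1.60) lower. In a list of fetal-like and Yap genes, 9 of 9 were 2-fold higher in LApc and in LApcL than in WT, with medians of 4.77 and 5.15. Between LApcL and LApc 2 of these passed 2-fold, Ly6a (1.67) and Clu (1.20), beside 1.49% of all genes.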

How the data were processed

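Organoid cells were captured with a Chromium 3′ kit, 1 library each for WT, LApc and LApcL. The authors deposited whole-number UMI counts per gene and barcode, not normalized, against mm10. The submitters' processing notes name Cell Ranger 2.1.1 whereas the file header gives 6.0.1; which made the counts was not settled here. The deposited matrices were used before the authors' own removal of barcodes by gene number, mitochondrial share and scDblFinder doublets.

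Barcodes of 1 library only with at least 10000 UMIs and at most 20% mitochondrial UMIs were kept (1208 WT, 2161 LApc and 1931 LApcL of 11411, 10706 and 12068). UMIs were summed per library and scaled to CPM. Ratios are log2 of CPM + 1, called at 2-fold where 1 of the libraries compared reached 5 CPM. Exact 95% intervals (Poisson for levels, Clopper-Pearson for shares, conditional binomial for ratios) cover counting error only, and with 1 library per group no p-value was computed. Shares were taken after thinning each barcode to 10000 UMIs, which left out none. No doublets were removed, since Scrublet's automatic threshold marked 1, 0 and 0 barcodes; removal at 0.8% per 1000 barcodes was an alternative. Each library was clustered alone (2000 variable genes, 20 components, Leiden resolution 0.5, chosen after the clusters at 0.2 were seen). A cluster was named only from 3 or more listed markers of a class among its 50 leading genes. At least 1 of them had to be among the leading 10, with no other class holding more there. The clusters are rebuilt and are not the authors' own.

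All 9 genes were named. From the pathway lists at most the 3 highest and 3 lowest genes per comparison were named, and as co-varying genes the 5 with the highest Pearson r at 0.3 or above, over genes and members positive in at least 10% of barcodes; Npy, Epcam, Lef1 and cluster-leading genes were named after their values were seen. A few genes that these rules name are not reported here. The members and lists were chosen with earlier results of these data known. The scripts were tested on simulated data. Alternatives were other depth, mitochondrial and doublet limits, scalings, pseudocounts, weights and subsets of barcodes. Python 3.11.15, numpy 2.4.6, scipy 1.17.1, pandas 2.3.3 and scanpy 1.11.5 were used. Promoter windows came from RefSeq.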

Additional observations from a re-analysis of the deposited data

Results flagged for a closer look

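Signal of the family was also present in barcodes outside the comparisons, those shared between libraries. In these, 8 of the 9 genes in WT, 7 of those in LApc and 8 of those in LApcL were above the limit that a count of 0 allows. Hbegf was at 306 CPM in the shared barcodes of WT, 305 in those of LApc and 321 in those of LApcL. Tgfa was at 79.5, 83.5 and 80.9 CPM there, above its 9.55, 28.7 and 17.7 CPM in the kept barcodes. By contrast, Areg was at 35.8, 15.5 and 2.61 CPM in the shared barcodes, against 1549, 114 and 88.7 in the kept ones. Ereg, Btc, Egfr, Erbb2 and Erbb3 were also lower in the shared barcodes of each library. No UMI minimum was set for the shared barcodes (medians of 2164, 1499 and 1602.5 UMIs), whereas the kept ones had at least 10000 UMIs. What these shared barcodes hold was not tested.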

How the results depend on the processing

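Areg and Ereg were past 2-fold lower under all 16 alternatives in LApc against WT and all 14 in LApcL against WT, as was Erbb2 (higher) under all 14 of the latter; Tgfa was past 2-fold in 14 of 16, Egfr in 13 of 16 and Erbb2 in 8 of 16 in LApc against WT, and Egfr in 10 of 13 in LApcL against LApc. Erbb3 passed 2-fold lower with median-of-ratios scaling in LApc against WT (-1.14) and in LApcL against WT (-1.12). In LApc against WT, the members' median became 0.081 without the deepest 10% of barcodes, -0.34 with median-of-ratios scaling, 0.061 with scaling without abundant genes, 0.071 with equal weight per barcode, 0.24 without WT barcodes rich in enterocyte markers, 0.046 in the proliferating/TA-like clusters and 0.047 with Epgn included. The count of genes higher there became 0 with a pseudocount of 10 CPM, 1 without enterocyte-rich WT barcodes and 1 in the proliferating/TA-like clusters. In LApcL against LApc, a pseudocount of 10 CPM gave a median of -0.27, and the count lower became 0 with that pseudocount, 0 with equal weight and 0 without LApc barcodes holding Npy. In LApcL against WT, the median became -0.13 without the deepest barcodes, -0.59 with median-of-ratios scaling, -0.17 with scaling without abundant genes, -0.27 without enterocyte-rich WT barcodes and -0.30 with Epgn included, and the count higher became 2 with equal weight and 2 without enterocyte-rich WT barcodes. The cause of these changes was not tested. The alternatives without enterocyte-rich or histone-led barcodes, in the proliferating/TA-like clusters and with Epgn included were chosen after seeing the data. No paired analysis was possible because each group had 1 library. Depth limited Epgn most, with 3 UMIs in LApcL.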

Other observations

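Detection of the family in the same barcodes differed by pair and library. At 10000 UMIs per barcode, Ereg was detected in 22.0% of the WT barcodes with an Areg UMI and in 3.57% of those without, in 6.80% and 2.43% in LApc and in 4.90% and 1.43% in LApcL. Hbegf was in 82.7% of the WT barcodes with Areg and 56.4% of those without, in 82.9% and 70.0% in LApc and in 88.3% and 78.9% in LApcL. Pairs with Tgfa had no common direction, such as Areg and Tgfa in WT (8.15% and 9.29%) or Hbegf and Tgfa in LApc (23.3% and 27.0%). Egfr was in 5.15% of the WT barcodes with Areg and 12.1% of those without, whereas the shares were 15.8% and 14.4% in LApc and 11.1% and 6.93% in LApcL. These shares are over barcodes of 1 library and carry no test.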
